A study of Mus musculus with 10 samples.

Results

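Primary mouse keratinocytes lacking RhoA were compared with control keratinocytes, all grown in culture, on 6 of the 10 arrays of the series, 3 per group. The arrays were chosen by their titles as cultured RhoA-KO or cultured wildtype cells. The RhoA-null cells, written KO here, had the genotype RhoA fl/fl K5 cre, and the controls had RhoA fl/+ K5 cre. Both groups thus carried the same Cre recombinase, driven by the keratin 5 promoter of basal keratinocytes. The cells called wildtype kept 1 unfloxed RhoA allele beside a floxed one. The labels give skin as the tissue and no age, time in culture or culture medium. The titles number the samples of each group as biological replicates 1 to 3 and name no animal, and the p-values therefore rest on sample-to-sample spread, which may be technical. The series also holds 4 arrays of freshly isolated cells, not used here.

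RhoA is a small GTPase that switches between a GTP-bound active and a GDP-bound resting form. Exchange factors load it with GTP, GTPase activating proteins turn it off, and its active form binds effectors such as ROCK kinases, formins and citron kinase, through which it drives actin assembly, myosin contraction and the cleavage of dividing cells. In the epidermis, basal keratinocytes divide on the basement membrane, and their daughters stop dividing, change their keratins and junctions and build the cornified envelope, a crosslinked protein shell whose precursor genes lie together in the epidermal differentiation complex.

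All 6 arrays carried a strong keratinocyte signal. The summed signal of 10 keratinocyte markers was 222352 to 266343 in control and 247798 to 260228 in KO arrays, with Krt5, Krt14 and Trp63 among them. Krt1, a keratin of the suprabasal layers, was at 4.30 to 26.7 on all 6 arrays. Many defining markers of other skin cells lay near the floor of the table, where values under 16 are treated here as low. Of 11 fibroblast markers, 8 were under 16 on all arrays, including Col1a1, Col1a2, Dcn and Pdgfrb, and the same held for 11 of 12 Langerhans and myeloid markers, for all 6 endothelial markers and for 3 of 8 melanocyte markers, Tyr, Sox10 and Kit. The summed fibroblast markers were nonetheless 128 to 167 in control and 253 to 443 in KO arrays, through Fbln2 and Vim, the summed melanocyte markers were 408 to 625 and 575 to 1465, and the summed Langerhans and myeloid markers 88 to 93 and 124 to 148, through Cd68 (1.31 ± 0.17, adjusted p = 0.0677). The tyrosinase-related gene Tyrp1 gave signals of 97.6, 232 and 152 in control and 236, 410 and 719 in KO replicates 1, 2 and 3. Here and below, 3 values of a group are given in that order of replicates. Of T cell markers 4 of 5 were under 16 on all arrays, but Cd3e gave 6479 to 6822. The same held for 11 of 13 hair follicle markers, whose sum was 869 to 1452 in control and 910 to 1170 in KO arrays. It also held for 4 of 5 Merkel cell markers, with sums of 645 to 2261 and 537 to 1310. The part of other cells in the differences that follow was not tested. In bulk RNA, fewer cells of a kind and less RNA per cell cannot be told apart.

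Of 22682 probe sets tested, 62 passed an adjusted p of 0.05 by limma with Benjamini-Hochberg adjustment, or 0.273%. In KO cells 41 of them were higher (0.181%) and 21 lower (0.0926%). Their adjusted p-values ran from 0.0159 to 0.0472, and their changes from 0.54 to 3.75 log2 units in size. The groups did not overlap at any of the 62, nor did they at 22.3% of all probe sets tested (10.1% higher and 12.2% lower in KO). An unadjusted p under 0.05 was reached by 15.6% of probe sets and an adjusted p under 0.10 by 1.1%. Symbols were at hand for 49 of the 62, which stood for 39 genes, 23 higher and 16 lower in KO, and the remaining 13 are counted without a name. For 23 of the 39 genes more than 1 probe set was tested, and in each of these 23 every probe set pointed in the same direction. This counts the sign alone. Some of these probe sets barely changed and their groups overlapped, such as 1 of Slc1a3 at -0.01 and 1 of Wwc2 at -0.10. The number of calls rested on the arrays included. Without KO replicate 1 it was 94, without control replicate 1 it was 27, without control replicate 2 it was 1, and with control replicate 3, KO replicate 3 or KO replicate 2 left out it was 0, while 2404 to 3891 of the probe sets had an unadjusted p under 0.05 when 1 array was left out. Of the 94 calls 31 were among the 62, and of the 27 calls 11 were. All 62 kept their direction in each of these fits. Their groups did not overlap, so leaving out 1 array could not have reversed them.

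**Figure D1:**
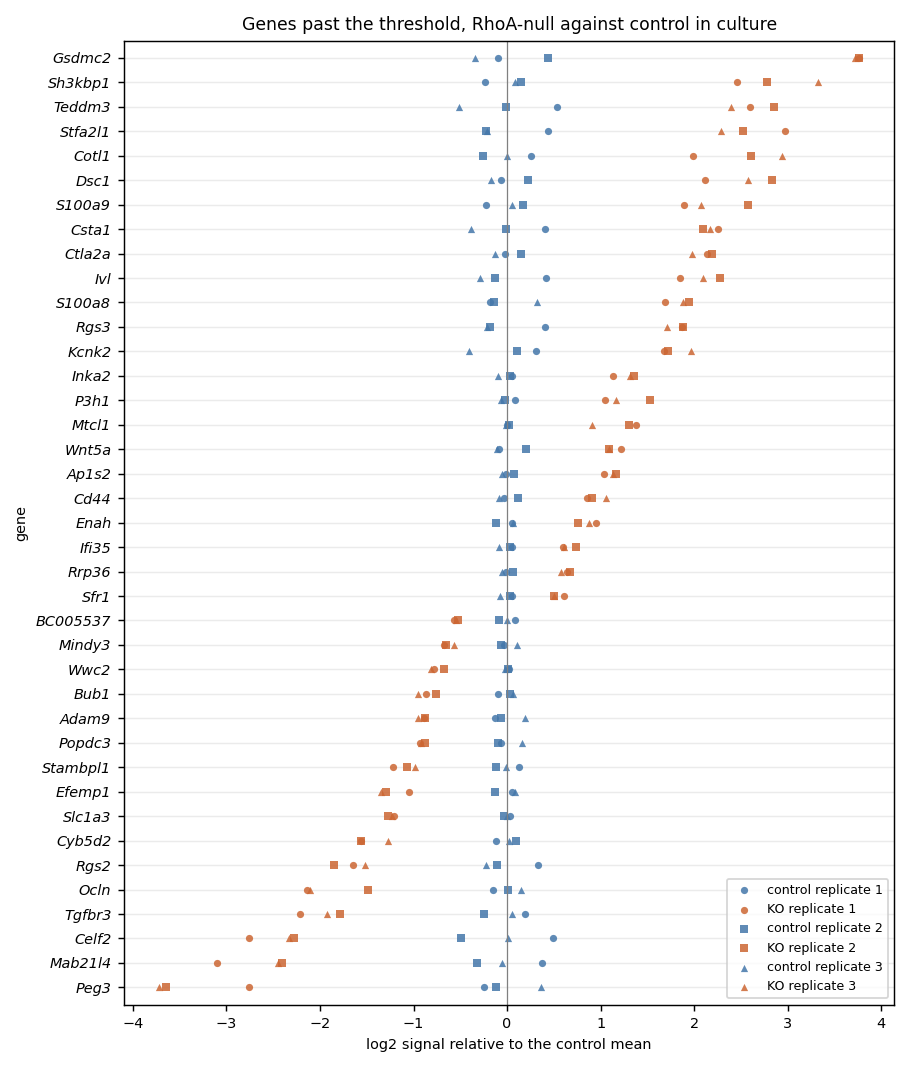
Log2 signal of the 39 genes with a probe set past the threshold, relative to the mean of the 3 control arrays of the same gene, with 1 symbol per array (blue, control; orange, KO; circle, square and triangle, replicates 1, 2 and 3). The 23 genes at the top are higher in all KO arrays, from 3.75 for Gsdmc2 to 0.54 for Sfr1, and the 16 at the bottom are lower, down to -3.38 for Peg3.

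Rhoa itself was measured by 2 tested probe sets, and neither passed the threshold. The brighter one gave 15352, 12735 and 11512 in control and 10811, 10774 and 10199 in KO arrays. All 3 KO values lay below the controls, with a log2 difference of -0.31 ± 0.11 (SE; limma adjusted p = 0.272). The other gave 11249, 9879 and 9240 against 8209, 7839 and 7628, a difference of -0.35 ± 0.08 (adjusted p = 0.156). Their place in the transcript was not analysed here, and a probe set outside the floxed stretch could keep its signal after recombination. These values therefore do not check the genotype labels.

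Genes of the effectors that act downstream of RhoA did not pass the threshold. Of 18 listed kinases and formins that bind RhoA, 13 were measured, meaning that they passed the filter on low signals, and 6 of these were higher and 7 lower in KO, with a median of -0.03 log2 units. Over all 11085 genes tested 47.8% were higher and 52.2% lower, and the median was -0.006. By limma 0 of 13 passed, against 0.298% of all genes, and 2 had an unadjusted p under 0.05, against 17.6%. The same shares of all genes apply to the counts of each list below. The lists were chosen with earlier results of these data known, so a larger share that passed does not measure enrichment. The formin Diaph3 gave 1820, 1797 and 1873 against 1438, 1307 and 1297 (-0.44 ± 0.07, adjusted p = 0.0924). Citron kinase (Cit), needed for abscission, stood at -0.60 ± 0.21 (adjusted p = 0.265). The 13 genes of myosin II and its phosphatase had a median of -0.05, with 4 higher and 9 lower. The main non-muscle heavy chain of keratinocytes, Myh9, was 19036, 17744 and 23464 in control and 17779, 17440 and 17618 in KO arrays, and these overlapped.

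Within the actin-binding genes, 2 of 54 passed, against 0.298% of all genes, and both rose. As the list was chosen with earlier results known, this share does not measure enrichment. Cotl1, which encodes the filament-binding coactosin-like protein, gave 1584, 1111 and 1327 in control and 5258, 8075 and 10175 in KO arrays. Every KO array lay more than the whole control range above the controls, and the gene rose by 2.51 ± 0.26 log2 units, or 5.70-fold (adjusted p = 0.0444). Of its 6 probe sets 5 passed, and all 6 were higher, by 1.37 to 3.05. Enah, the filament elongation protein Mena, gave 6606, 5832 and 6654 against 12310, 10773 and 11664, and rose by 0.86 ± 0.08 (adjusted p = 0.0386), with 2 of 5 probe sets past the threshold. The tropomyosin gene Tpm1 gave 7560, 8202 and 7792 against 10729, 11952 and 12956 and did not pass (0.59 ± 0.08, adjusted p = 0.0681). The actin genes Actb and Actg1 differed by 0.00 and -0.03. Over all 54 the median was -0.01, with 25 higher and 29 lower. Targets of SRF and its actin-sensing partner MRTF had a median of -0.06 in 28 measured genes, 9 higher and 19 lower.

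Several further genes that changed act on the cytoskeleton, on signalling or on membrane traffic. Sh3kbp1 encodes the adaptor CIN85, which links the ubiquitin ligase Cbl to endocytosis of receptors. Its signal was 130, 170 and 162 in control and 842, 1053 and 1532 in KO arrays, a rise of 2.86 ± 0.24 or 7.24-fold (adjusted p = 0.0358). Of its 4 probe sets 2 passed, with changes from 0.16 to 2.99. Stambpl1, an endosomal deubiquitinase, fell from 836, 701 and 758 to 327, 363 and 386 (-1.09 ± 0.11, adjusted p = 0.0444), with -0.47 at its other probe set. The remaining 28 of 30 measured genes of Cbl and clathrin adaptors did not pass, and the median of the list was 0.01. Ap1s2, a subunit of the clathrin adaptor AP-1, rose at 1 of 3 probe sets (1.11 ± 0.09, adjusted p = 0.0358), with 0.17 and 0.19 at the others. Mtcl1, which crosslinks microtubules, rose at both of its probe sets from controls near the floor. At the probe set with the higher control signal the values were 13.6, 13.8 and 13.5 against 35.3, 33.6 and 25.5 (1.20 ± 0.13, adjusted p = 0.0444), and with 16 added its change was 0.68 and no longer passed. The other gave 6.22, 5.51 and 9.03 against 43.9, 42.9 and 57.7 (2.82 ± 0.22, adjusted p = 0.0358). Inka2, an inhibitor of the kinase PAK4, gave 49.7, 49.0 and 44.8 in control and 105, 122 and 119 in KO arrays (1.27 ± 0.11, adjusted p = 0.0358), while its second probe set stood at 0.25.

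A pair of genes that shorten G protein signals moved in opposite directions. Rgs2 fell from 881, 650 and 601 to 223, 195 and 245, by 1.67 log2 units (SE 0.18, adjusted p = 0.0444), and 2 of its 3 probe sets passed. Rgs3 rose from 21.4, 14.2 and 13.9 to 59.4, 59.7 and 52.8 at the probe set that passed (1.82 ± 0.18, adjusted p = 0.0444). That control level lies near the floor of the table, and with 16 added to every signal the change of Rgs3 was 1.18. Its brighter probe set did not pass (1.18 ± 0.31, adjusted p = 0.178). The potassium channel gene Kcnk2 rose from 19.8, 17.2 and 12.1 to 51.2, 53.1 and 62.6 (1.79 ± 0.20, adjusted p = 0.0464), and with 16 added its change was 1.15.

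Cornified envelope genes formed the list with the highest median. Of 34 measured precursor and crosslinking genes 31 were higher and 3 lower in KO cells, with a median of 2.03 log2 units against -0.006 over all genes. The groups did not overlap for 20 of them, 17 higher and 3 lower, where 24.5% of all genes did not overlap. By limma 1 of the 34 passed, Ivl, against 0.298% of all genes by their brightest probe set, and 20 had an unadjusted p under 0.05. The arrays of each group were far apart from each other. Relative to the control mean, the median gene of the list stood at -0.36, 0.20 and 0.24 in the control arrays and at 0.72, 2.65 and 2.90 in the KO arrays, so replicate 1 was the lowest of either group. Leaving out control replicate 1 brought the median of the list to 1.30, and leaving out KO replicate 1 brought it to 2.56.

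Ivl, which encodes the envelope scaffold involucrin, gave 706, 483 and 433 in control and 1900, 2549 and 2249 in KO arrays. The KO values were close to each other and all well above the controls, a rise of 2.07 ± 0.21 or 4.20-fold (adjusted p = 0.0444). Its other probe set stood at 2.71 and did not pass (adjusted p = 0.151). Lor, the major envelope protein loricrin, gave 147, 262 and 250 against 688, 1922 and 1766 (2.64 ± 0.46, adjusted p = 0.102). Rptn, repetin, was near the floor in control arrays at 8.72, 8.47 and 9.0 and gave 72.9, 248 and 347 in KO arrays (4.40 ± 0.57, adjusted p = 0.0643), and with 16 added its difference was 3.05. Cdsn, corneodesmosin, gave 116, 310 and 259 against 760, 3568 and 2523 (3.17 ± 0.67, adjusted p = 0.132), and Flg, filaggrin, gave 76.6, 175 and 295 against 424, 1773 and 1456 (2.70 ± 0.71, adjusted p = 0.181). For Lor, Rptn, Cdsn and Flg all KO values lay above all control values, and KO replicate 1 was the lowest KO array. Evpl, the plakin envoplakin, went the other way, at 1341, 1138 and 1530 against 804, 886 and 918 (-0.61 ± 0.13, adjusted p = 0.131).

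Most of these genes sit side by side in the epidermal differentiation complex. In RefSeq gene order on chromosome 3, 69 genes lay from S100a1 to S100a11 and 41 were measured. Of these 39 were higher and 2 lower in KO, with a median of 2.02, and 19 were higher with no overlap (11.3% of all genes were). By limma 3 passed, against 0.298% of all genes. All 14 measured late cornified envelope genes were higher, with a median of 3.86, and by limma 0 passed. Lce1f gave 53.03, 215 and 181 in control and 495, 3291 and 6063 in KO arrays. KO replicate 1 lay far below the other KO arrays, and the change of 4.07 had an SE of 1.04 (adjusted p = 0.175). Lce1c lay near the floor in controls, at 9.62, 10.4 and 9.67, and gave 32.8, 570 and 961 in KO arrays (adjusted p = 0.181), so that its fold depends on the floor. The late envelope and small proline-rich genes are families of near-identical copies, and their probe sets may not separate the copies.

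**Figure D2:**
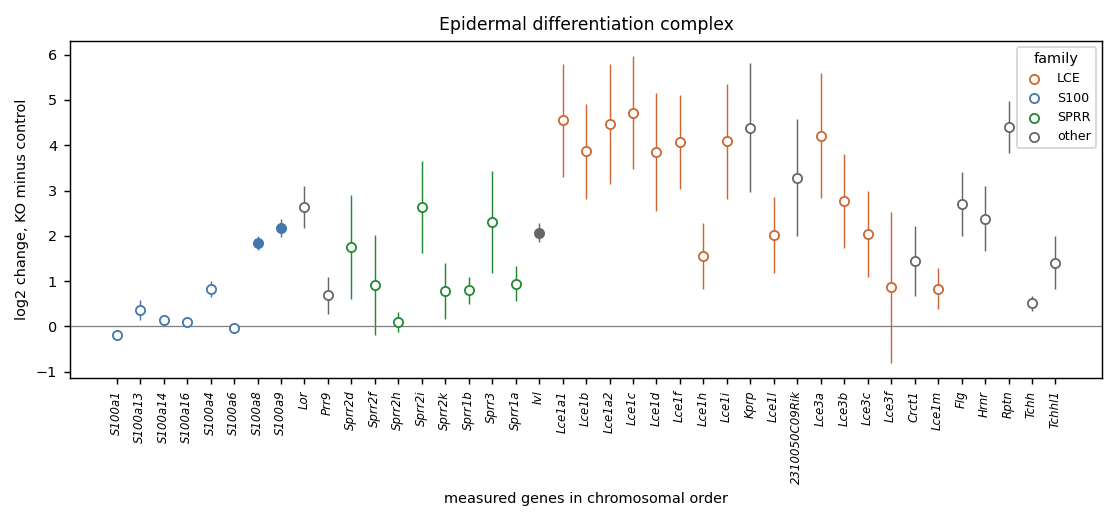
Log2 change, KO minus control, of the 41 measured genes of the epidermal differentiation complex in chromosomal order, with SE bars (3 arrays per group). Filled symbols mark the 3 genes past the adjusted p threshold, S100a8, S100a9 and Ivl, and colours mark the gene families. The late cornified envelope genes have the highest changes and wide error bars, and the S100 genes at the left have narrow ones.

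Small proline-rich genes, whose products bridge envelope proteins, were all higher, 9 of 9, with a median of 0.94. By limma 0 of 9 passed, and 2 had an unadjusted p under 0.05, against 17.6% of all genes. Of the 9, 1 was higher with no overlap, a share near the 11.3% of all genes. Sprr2i, that gene, gave 61.1, 596 and 459 against 650, 1973 and 3055 (2.63 ± 1.02, adjusted p = 0.302). Sprr1a gave 9285, 20978 and 19292 against 20021, 36356 and 36756, so KO replicate 1 lay below control replicate 2 (0.94 ± 0.39, adjusted p = 0.326). Without KO replicate 1 the median of this list was 2.02, and without control replicate 1 it was 0.57.

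The 8 measured S100 genes of the same complex, with a median of 0.26, included the calprotectin pair, both of which rose. S100a9 gave 701, 917 and 851 in control and 3032, 4862 and 3440 in KO arrays (2.18 ± 0.20, 4.53-fold, adjusted p = 0.0386). S100a8 gave 1672, 1715 and 2370 against 6123, 7277 and 6957 (1.84 ± 0.15, 3.57-fold, adjusted p = 0.0358). In both genes KO replicate 1 was the lowest KO array and still far above every control. The other 6 did not pass. S100a6, bright on all arrays, stood at -0.04, and S100a4 at 0.82 ± 0.18 (adjusted p = 0.148).

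The bases ahead of the starts of Ivl, S100a8 and S100a9 are shown because these were the 3 genes of the complex that passed. They are the 250 bases upstream of the start in RefSeq, build GRCm38.p6, at chr3:92573736-92573985 on the minus strand, chr3:90668821-90669070 on the plus strand and chr3:90695722-90695971 on the minus strand, each 5′ to 3′ along the gene. Capitals mark a match to TGANTCA, the site bound by AP-1 factors.
Ivl: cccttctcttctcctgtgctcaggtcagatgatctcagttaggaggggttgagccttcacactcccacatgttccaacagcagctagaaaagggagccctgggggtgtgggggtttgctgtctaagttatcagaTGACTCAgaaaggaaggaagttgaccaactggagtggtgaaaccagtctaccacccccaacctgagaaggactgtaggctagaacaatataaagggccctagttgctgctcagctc
S100a8: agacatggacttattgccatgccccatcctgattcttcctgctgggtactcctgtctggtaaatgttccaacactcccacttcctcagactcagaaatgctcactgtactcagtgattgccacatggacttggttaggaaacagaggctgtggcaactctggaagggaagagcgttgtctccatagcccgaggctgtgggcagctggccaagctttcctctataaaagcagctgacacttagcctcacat
S100a9: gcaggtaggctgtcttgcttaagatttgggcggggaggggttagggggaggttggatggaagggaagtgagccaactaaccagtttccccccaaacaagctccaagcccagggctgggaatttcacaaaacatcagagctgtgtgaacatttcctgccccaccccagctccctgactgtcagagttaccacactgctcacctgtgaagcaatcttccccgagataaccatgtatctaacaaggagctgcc
Ivl holds 1 such match, 116 bases ahead of its start, and a TATAAA 29 bases ahead. S100a8 holds a TATAAA at 30 bases and no TGANTCA, and S100a9 holds neither in this window. Searched on both strands in the 250 bases upstream, TGANTCA was found in 4 of 19 risen genes with a RefSeq promoter (Ivl, Ctla2a, Ifi35 and Kcnk2), in 3 of 12 fallen genes, and in 6.75% of all 32851 promoters. TATAAA was found in 7 of 19, 2 of 12 and 12.4%, and GGAATG, bound by TEAD factors, in 2 of 19, 4 of 12 and 12.6%. The CArG box bound by SRF was in none of the risen or fallen genes and in 1.47% of promoters. A gene counted if any of its promoters held the motif, while the percentages are shares of single promoters. Genes with several promoters have more room for a match, so the counts and percentages are not like for like. These matches describe the sequence alone.

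Stefins and cystatins inhibit cysteine proteases. All 6 measured stefins and cystatins were higher (median 0.67), where 47.8% of all genes were, and 2 passed, against 0.298% of all genes. This list too was chosen with earlier results known, so its share does not measure enrichment. Csta1 gave 992, 746 and 574 in control and 3591, 3218 and 3373 in KO arrays (2.17 ± 0.20, 4.51-fold, adjusted p = 0.0386). Stfa2l1 gave 126, 79.9 and 80.0 against 730, 535 and 453 (2.59 ± 0.26, 6.03-fold, adjusted p = 0.0444). In both genes the KO arrays lay far above the controls, and replicate 1 was the highest of each group. Stefin A genes are a mouse family of similar copies on chromosome 16, which their probe sets may not separate. Cstb, the ubiquitous stefin B, stood at 0.18 ± 0.06 (adjusted p = 0.26). Ctla2a, similar to the inhibitory propeptide of cathepsins, rose from 12.6, 14.1 and 11.7 to 55.9, 58.3 and 50.1 (2.10 ± 0.10, adjusted p = 0.0159), and 1.30 with 16 added to each signal. The upstream bases of both stefin genes, chr16:36131190-36131439 on the minus strand and chr16:36156561-36156810 on the plus strand of GRCm38.p6, are given as the pair of one family that rose together, and neither holds TGANTCA or TATAAA.
Csta1: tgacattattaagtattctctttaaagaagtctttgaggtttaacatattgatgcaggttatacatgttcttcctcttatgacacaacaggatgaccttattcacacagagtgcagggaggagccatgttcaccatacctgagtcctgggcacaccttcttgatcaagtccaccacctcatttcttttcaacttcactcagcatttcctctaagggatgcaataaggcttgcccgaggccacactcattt
Stfa2l1: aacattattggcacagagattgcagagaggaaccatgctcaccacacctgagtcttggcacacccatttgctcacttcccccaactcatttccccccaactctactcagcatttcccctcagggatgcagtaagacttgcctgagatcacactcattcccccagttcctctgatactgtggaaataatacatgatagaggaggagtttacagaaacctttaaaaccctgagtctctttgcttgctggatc

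Proteases of the upper epidermis did not pass. Of 20 kallikreins, membrane proteases and cathepsins 14 were higher and 6 lower (median 0.34), by limma 0 passed and 8 had an unadjusted p under 0.05. Klk12, among the 14, gave 7.24, 7.29 and 7.18 against 7.19, 14.8 and 12.6. The filter kept it through its KO arrays alone, which fixed its direction. Klk6 gave 276, 544 and 525 against 698, 1896 and 1714 (1.62 ± 0.46, adjusted p = 0.204), and Klk10 gave 2496, 2412 and 2314 against 3289, 3817 and 4448 (0.67 ± 0.12, adjusted p = 0.105). Their groups were apart. Serpins and other inhibitors had a median of 0.06 in 17 genes, and Serpinb1a, an inhibitor of neutrophil proteases, stood at -2.58 ± 0.58 (adjusted p = 0.147).

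Desmosomal cadherins, which hold keratinocytes together, were higher in 4 of 6, with a median of 0.99. Dsc1, desmocollin 1 of the upper layers, rose from 214, 261 and 198 to 965, 1588 and 1325 (2.51 ± 0.21, 5.68-fold, adjusted p = 0.0358), and both of its probe sets passed. Dsg1b and Dsg1a, desmogleins 1, stood at 1.61 ± 0.19 (adjusted p = 0.0528) and 0.87 ± 0.14 (adjusted p = 0.0979). Dsg2, desmoglein 2, stood at -0.37 ± 0.13 (adjusted p = 0.271). The 7 genes of the desmosomal plaque had a median of 0.00.

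Tight junction genes lay lower. Of 22 measured 7 were higher and 15 lower, with a median of -0.22, and 7 were lower with no overlap (13.2% of all genes were). Ocln, occludin, which spans the membrane at the tight junction, was the gene that passed. It fell from 785, 880 and 966 to 199, 311 and 203 (-1.91 ± 0.20, 3.76-fold, adjusted p = 0.0444), and its other probe set stood at -1.24. Its partner Marveld2, tricellulin, gave 599, 661 and 785 against 116, 260 and 271 (-1.75 ± 0.35, adjusted p = 0.124). Cldn1, the main claudin of the epidermal barrier, gave 6346, 4686 and 7589 against 2471, 2061 and 2975 (-1.30 ± 0.21, adjusted p = 0.098). In both, all KO arrays lay below all controls without passing the threshold. Cldn4 and the cytoplasmic protein cingulin (Cgn) both stood at -1.06 (adjusted p = 0.201 and 0.132).

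Adherens junction genes had a median of 0.00 in 17 measured, 9 higher and 8 lower. By limma 0 passed, with 4 at an unadjusted p under 0.05, against 17.6% of all genes. Cdh1, E-cadherin, was 28910, 23720 and 24173 against 24359, 22231 and 22583, and overlapped. Nectin2 and Nectin3, which start contacts, stood at -1.29 ± 0.26 (adjusted p = 0.124) and 1.05 ± 0.18 (adjusted p = 0.101). Among 7 connexins and pannexins, Gjb6, connexin 30, gave 112, 168 and 110 against 749, 446 and 551 (2.16 ± 0.26, adjusted p = 0.0562), and Gja1, connexin 43, stood at -0.01. No gene of that list passed by limma, and 3 had an unadjusted p under 0.05.

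**Figure D3:**
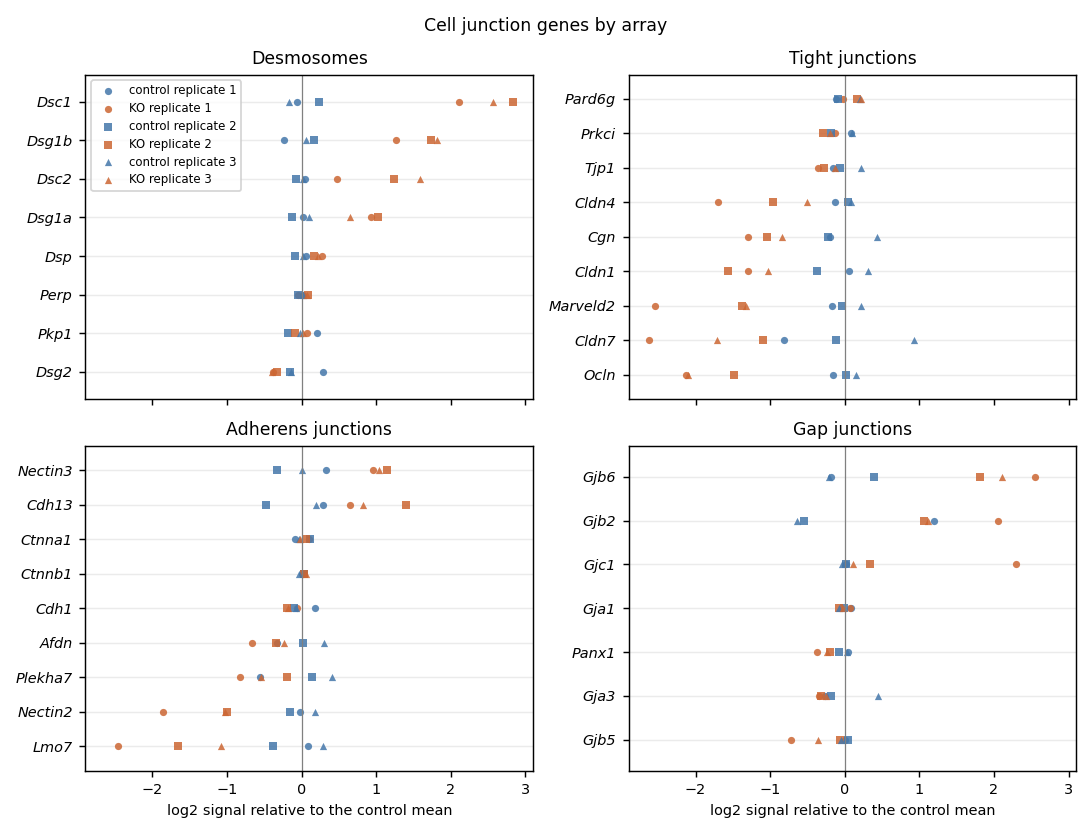
Log2 signal relative to the control mean for junction genes, in 4 panels, with 1 symbol per array (blue, control; orange, KO). Each panel shows the genes with the 6 smallest p-values and the 3 brightest genes of its list. Dsc1 lies to the right and Ocln to the left with their groups apart, and Cdh1 and Gja1 overlap.

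The keratins of basal cells were bright in both groups, with differences of 0.04 for Krt5 and 0.05 for Krt14. All 9 measured suprabasal and stress keratins were higher (median 0.54), by limma 0 passed and 4 had an unadjusted p under 0.05. Krt6b, a keratin of injured and cultured epidermis, gave 4629, 1791 and 1796 in control and 12558, 12482 and 9203 in KO arrays (2.20 ± 0.40, adjusted p = 0.109). Krt16 gave 23973, 8886 and 9133 against 31062, 25969 and 24676 (1.12 ± 0.40, adjusted p = 0.273). For both, control replicate 1 was the highest control and all KO arrays lay above it. Of 26 measured transcription factors of epidermal differentiation 13 were higher and 13 lower (median -0.01), and by limma 0 passed. With no overlap, 2 were higher and 7 lower, where 11.3% and 13.2% of all genes were. Trp63 and Klf4 overlapped between groups.

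Genes of adhesion to the matrix included one that rose and one that fell. Cd44, the hyaluronan receptor, gave 9155, 10160 and 8791 against 16928, 17502 and 19396, and rose by 0.94 ± 0.08 (adjusted p = 0.0358) at 1 of 3 probe sets, with 0.29 and 0.50 at the others. Efemp1, the secreted glycoprotein fibulin-3, fell from 3490, 3089 and 3571 to 1630, 1379 and 1330 (-1.23 ± 0.11, adjusted p = 0.0358). P3h1, which hydroxylates collagen prolines, rose at 1 of its probe sets, from 14.8, 13.7 and 13.3 to 28.8, 40.3 and 31.3 (1.25 ± 0.14, adjusted p = 0.0444), and 0.72 with 16 added, while the other stood at 0.53. Of 14 hemidesmosome and basement membrane genes 11 were higher (median 0.26). By limma 0 passed, with 3 at an unadjusted p under 0.05, against 17.6% of all genes. Lamb3, a chain of laminin 332, gave 17054, 18298 and 18975 against 21100, 22727 and 23788 (0.32 ± 0.06, adjusted p = 0.129). The matricellular gene Tnc gave 1199, 863 and 1275 against 3251, 2505 and 3307 (1.45 ± 0.19, adjusted p = 0.0643), and Fbln2 30.6, 31.0 and 28.8 against 79.8, 203 and 218 (2.34 ± 0.39, adjusted p = 0.0999).

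Peg3, an imprinted zinc finger gene expressed from the paternal allele, had the greatest fall of the genes that passed. Its signal was 390, 427 and 594 in control and 68.1, 36.9 and 35.1 in KO arrays (-3.38 ± 0.31, 10.4-fold, adjusted p = 0.0386). All 3 probe sets were lower, by 2.37 to 3.38 log2 units, and 2 passed. The other 16 measured imprinted genes did not pass and lay on both sides of 0. Ndn, necdin, gave 175, 214 and 126 against 382, 442 and 406 (1.29 ± 0.21, adjusted p = 0.0979). Grb10, an adaptor of growth factor receptors, gave 1118, 818 and 793 against 342, 451 and 270 (-1.37 ± 0.23, adjusted p = 0.0999).

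Signalling genes changed singly. Tgfbr3, the TGF-beta co-receptor betaglycan, fell from 1119, 822 and 1019 to 211, 285 and 258 (-1.97 ± 0.17, 3.93-fold, adjusted p = 0.0358). Id2, a target of BMP signals, gave 4158, 4177 and 5055 against 2354, 1529 and 1644 (-1.30 ± 0.18, adjusted p = 0.075), and the 30 measured TGF-beta family genes had a median of 0.03. Wnt5a, a non-canonical Wnt ligand, rose from 31.3, 38.3 and 30.9 to 77.7, 71.0 and 70.8 (1.13 ± 0.12, adjusted p = 0.0444). Wnt4, Wnt3 and Wnt10a, other Wnt ligands of keratinocytes, stood at -0.74 (adjusted p = 0.127), -0.88 (adjusted p = 0.0999) and -0.58 (adjusted p = 0.175), and the median of 32 measured Wnt pathway genes was -0.02. All 4 receptors of the EGF receptor family were lower by sign, with a median of -0.24, and by limma 0 passed, with 1 at an unadjusted p under 0.05. Of them, Erbb4 lay near the floor on all arrays and stood at -0.02, and Egfr overlapped between groups (-0.23 ± 0.15, adjusted p = 0.523). Erbb3 stood at -0.80 ± 0.20 (adjusted p = 0.166). Adam9, a membrane metalloprotease, fell from 7693, 7994 and 9597 to 4545, 4578 and 4346 (-0.90 ± 0.09, adjusted p = 0.0444). Of 23 measured targets of YAP and TEAD, which respond to cell tension, 6 were higher and 17 lower (median -0.19). By limma 0 passed and 10 had an unadjusted p under 0.05, against 17.6% of all genes. Wwc2, a relative of the YAP pathway protein KIBRA, fell at 1 of 5 probe sets (-0.76 ± 0.08, adjusted p = 0.0464).

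Genes of DNA replication were lower nearly throughout, by small amounts. Of 41 measured 40 were lower and 1 higher, with a median of -0.28, and 24 were lower with no overlap (13.2% of all genes were). By limma 0 passed, and 22 had an unadjusted p under 0.05. Relative to the control mean the median gene stood at -0.06, 0.04 and 0.04 in control and -0.25, -0.21 and -0.20 in KO arrays, so that all KO arrays lay below the controls. Mcm3, a subunit of the replicative helicase, gave 6713, 5830 and 6142 against 4430, 4643 and 4656 (-0.44 ± 0.07, adjusted p = 0.0884). Pcna, the sliding clamp, gave 39393, 40194 and 38327 against 33682, 34593 and 33811 (-0.21 ± 0.04, adjusted p = 0.101). Under every alternative setting and with each array left out, the median of this list stayed between -0.28 and -0.21.

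**Figure D4:**
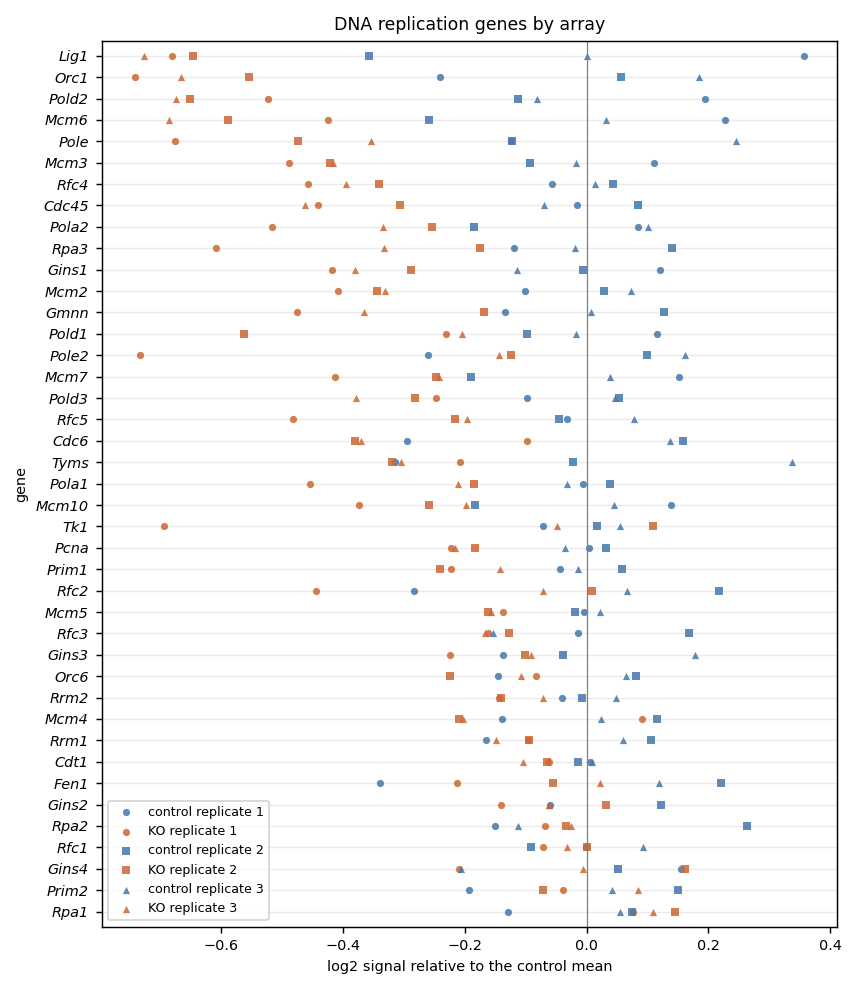
Log2 signal of the 41 measured DNA replication genes relative to the control mean of the same gene, with 1 symbol per array (blue, control; orange, KO). The KO arrays lie mostly to the left, by 0.28 at the median gene, and the groups overlap at 16 genes.

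Mitotic and cell cycle genes were also lower in their majority. Of 36 genes of the midbody, contractile ring and mitosis 8 were higher and 28 lower (median -0.19), by limma 0 passed and 14 had an unadjusted p under 0.05. Aurkb, the Aurora B kinase of the midbody, gave 2616, 2364 and 2795 against 1484, 1678 and 1652 (-0.69 ± 0.09, adjusted p = 0.0669). Bub1, the spindle checkpoint kinase, is a gene that passed, at 45.8, 49.9 and 51.3 against 26.8, 29.0 and 25.3 (-0.86 ± 0.09, adjusted p = 0.0444), while its brighter probe set did not (-0.51, adjusted p = 0.277). Cyclins, their kinases and inhibitors were higher in 7 and lower in 21 of 28 (median -0.30), by limma 0 passed and 15 had an unadjusted p under 0.05. Ccna2, cyclin A2, gave 7122, 5795 and 6433 against 4141, 4759 and 4591 (-0.52 ± 0.10, adjusted p = 0.112). Among p53 target genes 25 of 29 were higher (median 0.37), by limma 0 passed and 11 had an unadjusted p under 0.05. Trp53inp1 gave 1526, 1993 and 1822 against 3301, 5391 and 4481 (1.28 ± 0.20, adjusted p = 0.0918), and Mdm2, which degrades p53, stood at 0.55 ± 0.13 (adjusted p = 0.153).

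Gsdmc2, of the gasdermin C family, rose from near the floor in controls, at 7.03, 10.3 and 5.96, to 103, 102 and 99.0 in KO arrays (3.75 ± 0.20, adjusted p = 0.0159). Among the controls only replicate 2 lay above its array median, so the filter kept the gene through its KO arrays. With 16 added to each signal the change was 2.31, under those of Sh3kbp1 (2.73) and Cotl1 (2.50), so its fold and its rank depend on the floor, and its probe set may not separate the near-identical gasdermin C genes. Casp1, the inflammasome caspase, gave 17.5, 15.5 and 16.7 against 41.9, 108 and 130 (2.34 ± 0.43, adjusted p = 0.109), and with 16 added its difference was 1.64. The median of 15 gasdermin and death receptor genes was 0.10. Interleukins, chemokines and their receptors were higher in 12 and lower in 24 of 36 (median -0.15). By limma 0 passed and 8 had an unadjusted p under 0.05, against 17.6% of all genes. Cxcl14, a chemokine of resting epidermis, stood at 0.59 ± 0.07 (adjusted p = 0.06), and Cxcl1, a neutrophil chemokine, at -1.03 ± 0.28 (adjusted p = 0.186). Ifi35, an interferon-induced gene, rose from 1565, 1547 and 1426 to 2292, 2515 and 2297 (0.65 ± 0.07, adjusted p = 0.0472), and the other 13 measured interferon-stimulated genes did not pass.

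Metabolic gene lists lay on both sides of 0. Cholesterol synthesis genes were lower in 19 of 20 (median -0.33), by limma 0 passed and 11 had an unadjusted p under 0.05. Relative to the control mean the median gene stood at -0.23, 0.07 and 0.15 in control and -0.47, -0.13 and -0.42 in KO arrays, so that control replicate 1 lay below KO replicate 2. Hmgcs1, an early enzyme of the pathway, gave 32262, 30955 and 33080 against 26995, 27124 and 24441 (-0.29 ± 0.06, adjusted p = 0.113). Glucose uptake and glycolysis genes were lower in 15 of 18 (median -0.17), by limma 0 passed and 7 had an unadjusted p under 0.05. The glucose transporter gene Slc2a3 gave 200, 61.2 and 57.7 in control and 7.38, 7.01 and 7.72 in KO arrays, at the floor (-3.60 ± 0.49, adjusted p = 0.0681), and with 16 added its difference was -2.20. Barrier lipid and fatty acid genes were higher in 25 and lower in 14 of 39 (median 0.16), by limma 0 passed and 18 had an unadjusted p under 0.05. Plin2, which coats lipid droplets, gave 4586, 5832 and 5241 against 8993, 10762 and 11038 (0.98 ± 0.12, adjusted p = 0.0608), and Elovl4, which makes very long fatty acids for ceramides, stood at 0.89 ± 0.16 (adjusted p = 0.111). The desaturase genes Scd1 and Scd2 stood at -0.89 ± 0.17 (adjusted p = 0.113) and -0.99 ± 0.24 (adjusted p = 0.168). Slc1a3, a glutamate transporter, fell from 50.7, 48.5 and 49.5 to 21.5, 20.6 and 21.1 (-1.24 ± 0.07, adjusted p = 0.0159) at 1 of 4 probe sets, the others being at -0.01 to -0.60, and by 0.82 log2 units with 16 added. Cytosolic ribosomal protein genes, respiratory chain genes and chaperones had medians of 0.00 in 37, 44 and 31 measured genes.

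**Figure D5:**
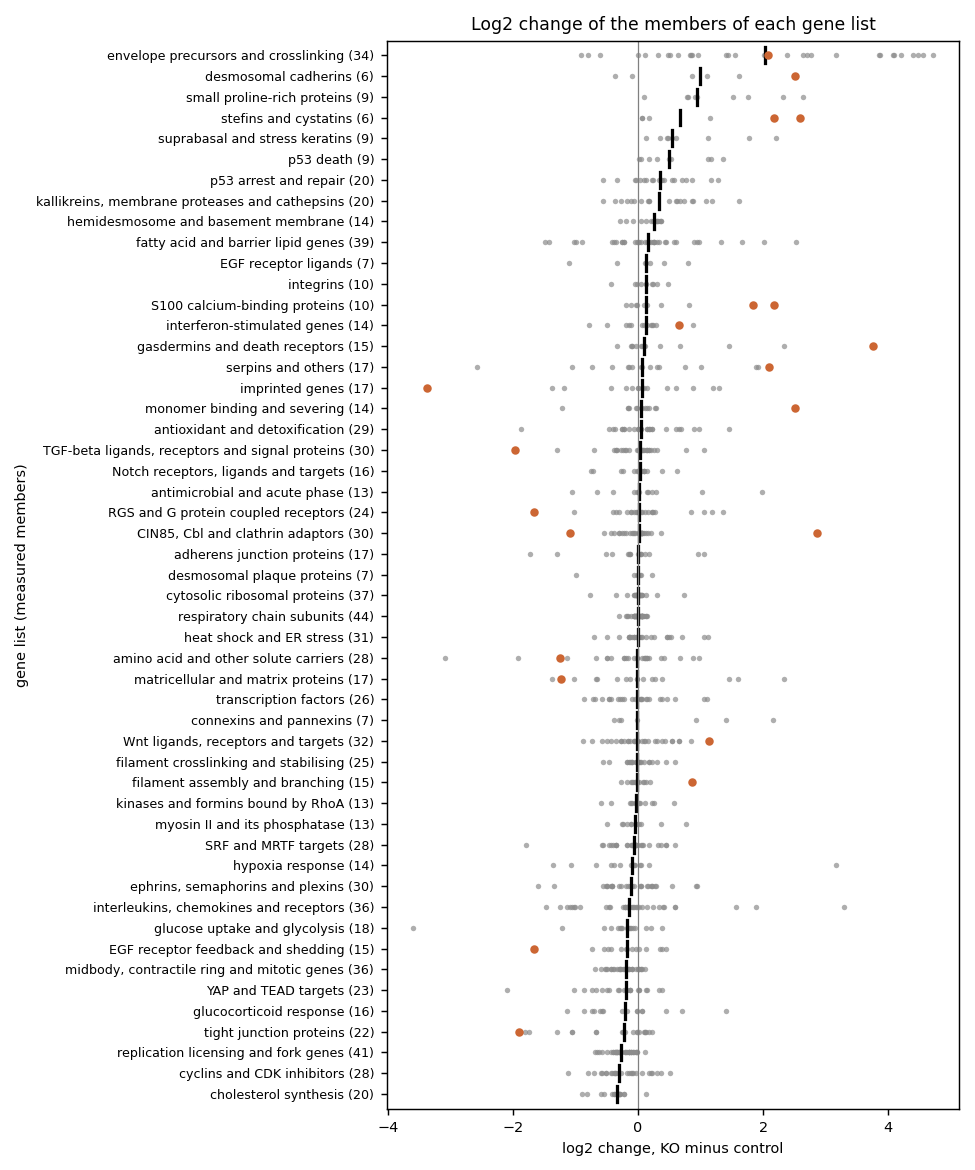
Log2 change, KO minus control, of each measured gene (points) in gene lists with 6 or more measured members, with the median of each list as a black bar. The S100 list also holds S100pbp, whose product binds an S100 protein. Orange points are genes past the adjusted p threshold by its brightest probe set. Envelope precursors have the highest median, 2.03, and cholesterol synthesis the lowest, -0.33.

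Ligands and receptors of cell guidance were higher in 13 and lower in 17 of 30 (median -0.11). By limma 0 passed and 9 had an unadjusted p under 0.05, against 17.6% of all genes. Sema5a, a semaphorin, gave 587, 561 and 831 in control and 291, 268 and 219 in KO arrays (-1.34 ± 0.19, adjusted p = 0.0822), with the groups apart. Sema3f, a secreted semaphorin, gave 895, 878 and 932 against 540, 612 and 687 (-0.56 ± 0.11, adjusted p = 0.113). Notch receptors, ligands and targets had a median of 0.03 in 16 genes. By limma 0 passed and 4 had an unadjusted p under 0.05, against 17.6% of all genes. The ligand gene Jag1 gave 3395, 2941 and 3485 against 4624, 5166 and 5252 (0.62 ± 0.09, adjusted p = 0.0833), also with the groups apart. Glucocorticoid response genes were higher in 5 and lower in 11 of 16 (median -0.21). By limma 0 passed and 3 had an unadjusted p under 0.05, against 17.6% of all genes. Fkbp5, a chaperone of the receptor, gave 2531, 1768 and 2046 against 1136, 1135 and 1195 (-0.86 ± 0.14, adjusted p = 0.097). Antioxidant and detoxification genes had a median of 0.05 in 29 genes, and Hmox1, heme oxygenase 1, overlapped between the groups.

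The remaining genes that passed belong to none of these groups or are little described. Celf2, an RNA-binding splicing regulator, fell from 61.4, 30.9 and 43.8 to 6.47, 9.0 and 8.67 (-2.45 ± 0.27, adjusted p = 0.0448) at 1 of its probe sets, while the other gave 48.3, 58.8 and 30.8 against 29.1, 29.5 and 30.8 (-0.58 ± 0.24, adjusted p = 0.325). Mab21l4 fell from 61.2, 37.7 and 45.3 to 5.48, 8.92 and 8.66 (-2.65 ± 0.26, adjusted p = 0.0439). Both ended at the floor at the probe set that passed, and with 16 added their changes were -1.32 and -1.42. Teddm3 rose from 95.7, 65.6 and 46.5 to 402, 479 and 349 (2.62 ± 0.28, adjusted p = 0.0444). Cyb5d2 fell by 1.47, Popdc3 by 0.91, the deubiquitinase gene Mindy3 by 0.63 at 1 of 2 probe sets (the other at -0.37) and BC005537 by 0.54 log2 units. Sfr1, which acts in recombination repair, and Rrp36, which acts in ribosomal RNA processing, rose by 0.54 and 0.63. These 6 genes had adjusted p-values from 0.0358 to 0.0444, and at each of them all 3 KO arrays lay on one side of all 3 controls.

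An adjusted p under 0.10 was reached by 1.33% of genes. A further 38 genes had one between 0.05 and 0.10, groups that did not overlap, a change of at least 1 log2 unit and a higher group mean of at least 64. They did not pass, 21 being higher and 17 lower. Edn1, the peptide endothelin 1, gave 201, 351 and 475 in control and 32.1, 38 and 70.7 in KO arrays (-2.87 ± 0.42, adjusted p = 0.0833). Igfbp3, which binds insulin-like growth factors, gave 7327, 5525 and 8057 against 2440, 1048 and 1632 (-2.10 ± 0.32, adjusted p = 0.0913). Arhgap44, a GTPase activating protein for Rac1 and Cdc42, stood at -2.23 ± 0.26 (adjusted p = 0.0562). On the higher side, Ccdc88a, the actin-binding protein girdin, gave 114, 61.3 and 67.0 against 240, 299 and 342 (1.90 ± 0.28, adjusted p = 0.0822), and the skin calmodulin relative Calm4 gave 1595, 3044 and 2514 against 6218, 11791 and 11617 (2.04 ± 0.34, adjusted p = 0.0999).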

How the data were processed

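RNA from 6 samples of cultured keratinocytes was measured on Affymetrix mouse whole-genome arrays after 3' IVT amplification, per the labels' protocols. The authors deposited linear intensities, 1 for each probe set on each array, and the submitters' processing notes name MAS5. How it was set and scaled was not stated in what was used here. The array medians were 7.75 to 8.00, the highest values 111660 to 123446, and 53.9% to 54.3% of values were under 10, so folds against low values depend on the floor. Precision is limited by 3 arrays per group.

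Of 45037 probe sets 34945 had 1 gene symbol, 932 several and 9160 none, the named ones standing for 18193 genes, and those with several or none were tested but not named. Intensities were taken to log2 with no offset, and probe sets above the array median on at least 2 of the 6 arrays were kept. A probe set at the floor in 1 group could be kept only through the other group. Its direction was then fixed by the filter, also in the counts of lists. KO and control were compared with limma 3.58.1 in R 4.3.3 (lmFit, eBayes with trend, 2-sided) and Benjamini-Hochberg adjustment over all 22682. ± gives the SE of a log2 difference. Levels of different genes were not compared. In lists, the probe set with the highest mean stood for a gene, and other probe sets are named where they passed. On simulated data at this size 57% of 2-fold and 94% of 4-fold changes were recovered, with 8 false calls.

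Members and gene lists were chosen with earlier results of these data known. Named are Rhoa, all genes past the threshold, genes with adjusted p of 0.05 to 0.10 meeting the criteria in the text, and per list those of smallest p or highest signal. A gene list and the regulators of its members are not reported here. Flg and Lce1c, outside that rule, were named after their values were seen. Alternatives covered the filter, an offset or floor of 16, 75th percentile or quantile scaling, trend, array weights, a replicate block, thresholds and leaving out each array.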

Additional observations from a re-analysis of the deposited data

How the results depend on the processing

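Against 62 probe sets called, the count was 2 with no filter, 158 with a higher group mean of at least 64, 6 with signals under 16 raised to 16, 128 with 75th percentile centring, 7 without the variance trend and 299 with array weights (0.420 to 2.014 per array), 0 at a threshold of 0.01 and 250 at 0.10. Of the 158, 48 were among the 62, and all 62 were among the 128 and among the 299. Leaving out 1 array gave 0 to 94. It stayed within 1.5 times with the filter on 3 arrays (63), an offset of 16 (44) and quantile normalization (68). The direction of all 62 held in every fit (48 of 48 tested under the filter of 64). With groups that did not overlap, leaving out 1 array could not reverse a direction, so this says little about stability. The replicate block gave 17 calls, 7 of them among the 62. Cldn1, Tnc and Calm4, which did not pass in the main fit, each had an adjusted p of 0.0453 by limma with the block. The deviations of same-numbered arrays correlated at 0.322, 0.081 and 0.249, and those of differently numbered arrays at -0.3 to 0.172. Control replicate 2 correlated best with KO replicate 3 (0.172). These values do not settle whether same-numbered arrays are pairs. The titles name no animal, and the main fit took the arrays as unpaired. Over single genes and list medians, 5468 values were the same, 136 passed the threshold newly, 358 no longer passed, 112 medians moved and 0 reversed. Genes that passed neither in the main fit nor in the alternative counted as the same. Genes of the main calls passed in between 13 of 16 alternative fits (Gsdmc2) and 3 of 15 (Mtcl1). Cotl1 passed in 6 of 16, Rgs2 in 5 of 16 and Celf2 in 4 of 15. Signals near the floor limit the folds of Gsdmc2, Ctla2a, Rgs3, Kcnk2, P3h1, Mtcl1, Celf2, Mab21l4, Slc2a3, Rptn, Casp1 and Lce1c. The number of calls thus rests on settings and single arrays.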
